A study of Mus musculus with 2 samples.

Results

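The integrins, the laminins and the proteins that link basement membranes together were examined in cranial suture tissue of newborn mice. Members were amplicon targets whose symbol names an integrin alpha or beta subunit or a laminin alpha, beta or gamma chain, together with Nid1, Nid2 and Hspg2. The members described here are 38 genes out of 23930 targets: 17 integrin alpha subunits, 8 integrin beta subunits, 10 laminin chains and 3 linkers. Itga10, the remaining collagen-binding subunit, was not analysed here.

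The tissue was taken from wildtype pups at postnatal day 3 and included the coronal, sagittal and lambdoid sutures. It was profiled in 2 libraries, library 1 and library 2, which form 1 group and carry the same batch number, so no conditions could be compared. Suture stem cells are named as the cell type in the labels, but the protocol describes whole tissue and no sort. Separate pups or pools are not stated as the origin of the libraries, so the spread between them may be technical, and the p-values below compare the reads of these 2 libraries only.

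Integrins are cell surface receptors made of an alpha and a beta subunit, and the alpha subunit largely sets which matrix protein is bound. Laminins are trimers of an alpha, a beta and a gamma chain that polymerise into the sheet of the basement membrane under epithelia and around vessels, muscle fibres and nerves. Nidogens and perlecan, the product of Hspg2, tie the laminin sheet to the collagen IV network. In bone, integrins also anchor osteoblasts and osteoclasts to an interstitial matrix that has no basement membrane.

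Library 1 held 5663344 reads and library 2 held 15802610, so a gene without a read could still lie at up to 0.530 CPM (reads of a gene scaled to the library total) in library 1 and 0.190 CPM in library 2, a limit of 3 reads. Reads without molecular identifiers are not independent molecules, and the intervals and limits given here include counting error alone. Each gene was read through 1 short amplicon, so CPM does not grow with gene length, but amplicons differ in efficiency and the order of different genes is a description. All 9 suture mesenchyme markers measured reached 1 CPM in both libraries, beside all 9 skeletal muscle, all 10 endothelial, all 10 leukocyte and 11 of 12 chondrocyte markers. The libraries differed in the markers of several tissues. Summed skeletal muscle markers stood at 39721 CPM in library 1 and 12241 CPM in library 2, chondrocyte markers at 1615 and 4870 CPM, and olfactory neuron markers at 96.4 and 524 CPM. In bulk tissue, fewer cells of a type and less RNA per cell cannot be told apart.

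The family was broadly present. Of the 38 members, 36 (94.7%) reached 1 CPM in both libraries, against 55.0% of all targets, and 27 (71.1%) reached 10 CPM in both, against 34.6% of all targets. The median member stood at 21.1 CPM in library 1 and 27.2 CPM in library 2, whereas the median of all targets was 2.65 and 3.35 CPM. The 2 members outside the first count were Itgae and Itgad, subunits of leukocyte integrins. Together the members took 0.324% of all reads in library 1 and 0.465% in library 2.

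**Figure D1:**
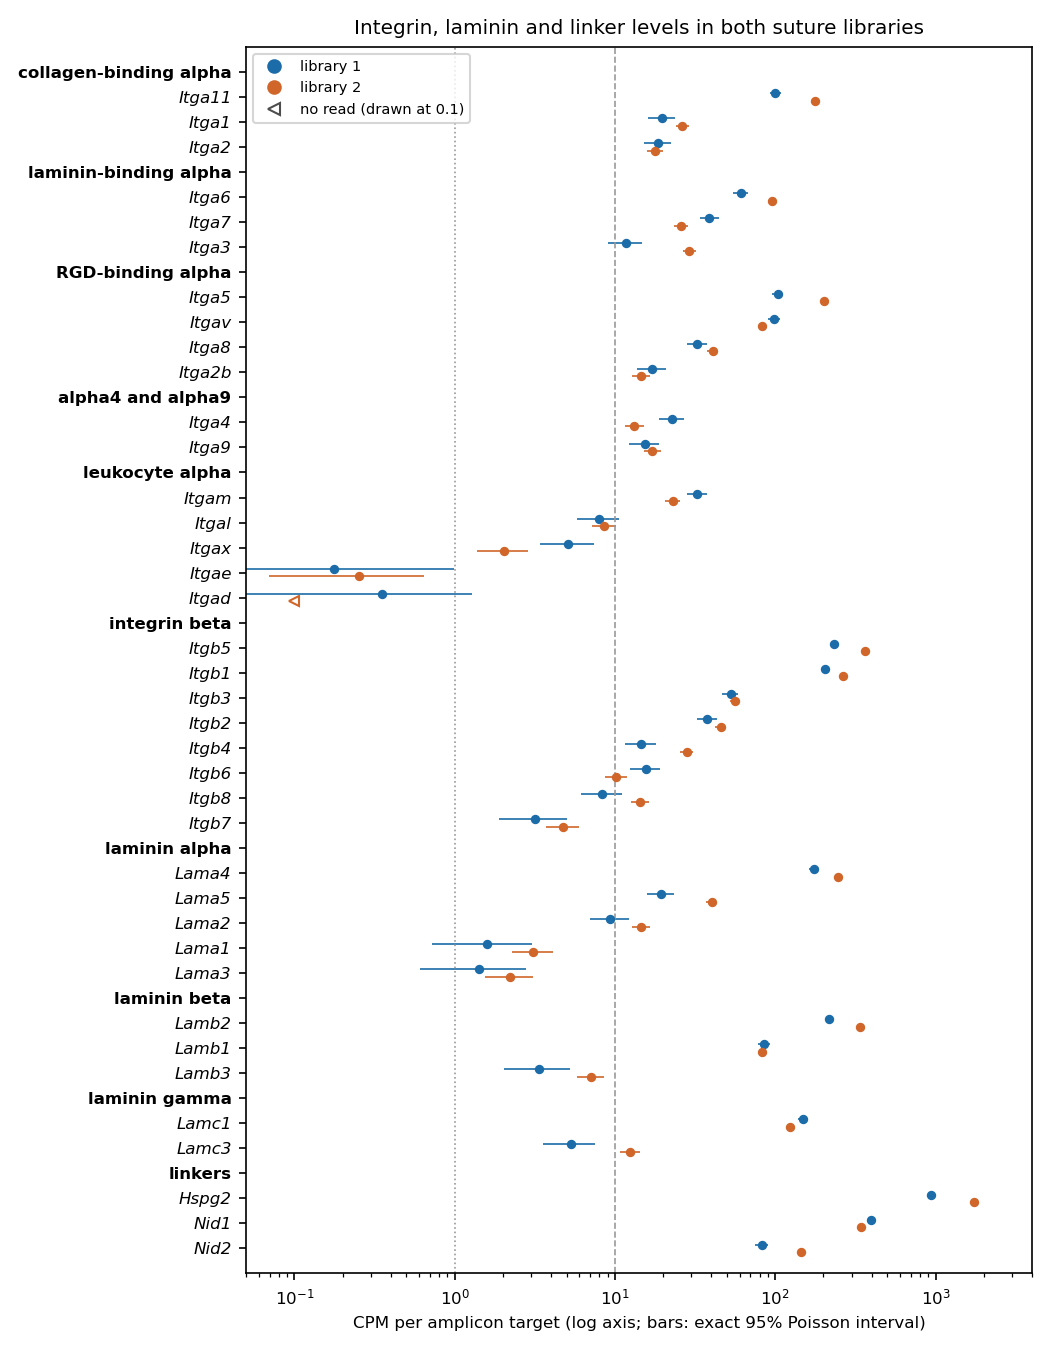
CPM of every member on a log axis, by role, in library 1 (blue) and library 2 (orange), with bars for the exact 95% Poisson interval; the dotted and dashed lines mark 1 and 10 CPM. Hspg2 lies highest, at 939 and 1729 CPM, and Itgad and Itgae lie lowest.

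Between the libraries the balance of the family lay toward library 2. An exact binomial test of the reads of each gene, adjusted over all targets with a threshold of 0.05, called 19 members (50.0%) higher in library 2, against 20.0% of all targets, and 8 (21.1%) higher in library 1, against 17.1%, and left 11 uncalled. Since most members are well expressed, targets averaging at least 10 CPM are the closer background. Of the 29 members at that level, 17 (58.6%) were called higher in library 2 and 7 (24.1%) in library 1, against 37.0% and 32.5% of such targets. Differences were mostly moderate. At 2-fold or more on the log2(CPM + 1) scale, Itga3, Lama5 and Lamc3 were higher in library 2 (7.89% of members, against 7.12% of all targets) and Itgax was higher in library 1 (2.63%, against 4.64%). Of the 29 well-expressed members, 2 (Itga3 and Lama5) passed this size toward library 2 and 0 toward library 1, against 7.89% and 7.27% of such targets. Lama5, at -1.02 on this scale, fell just under 2-fold with TMM scaling (-0.99) and with median-of-ratios scaling (-0.98).

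The median difference over members was -0.39 on the log2(CPM + 1) scale, library 1 minus library 2, against 0.00 over all targets and -0.05 over targets at a mean of 10 CPM or more. Laminins had a median difference of -0.62, with 6 of 10 called higher in library 2 and 1, Lamc1, in library 1. The linkers had -0.80, integrin beta subunits -0.41 and integrin alpha subunits -0.09. Among alpha subunits 6 of 17 were called higher in library 2 and 5 in library 1. Of all targets, 20.0% were called higher in library 2 and 17.1% in library 1. Of targets averaging at least 10 CPM the shares were 37.0% and 32.5%. The alpha subunit counts lie near these, but they include Itgal, Itgax, Itgae and Itgad, which averaged under 10 CPM. Of those only Itgax was called, and all 6 alpha subunits called higher in library 2 averaged at least 10 CPM. The counts and these shares are therefore not like for like. These are descriptions of 2 libraries, and the list was not tested against other genes.

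Linker genes held the highest levels, with Hspg2 and Nid1 at the top of all members. Hspg2, the gene of the large heparan sulfate proteoglycan perlecan, gave 939 CPM in library 1 and 1729 CPM in library 2 (mean 1334 CPM ± 559, SD, n = 2) and ranked 85 and 28 among all targets. It lies on mm10 chromosome 4 from 137468769 to 137570630. Perlecan is known from cartilage matrix as well as from basement membranes. Hspg2 was 1.84-fold higher in library 2, a difference called by the exact binomial test, and the summed chondrocyte markers were 3.02-fold higher there, with 12 of 12 called in that direction. The part of cartilage in the Hspg2 difference was not tested.

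Nid1, the gene of the first nidogen, gave 394 CPM in library 1 and 342 CPM in library 2 (mean 368 CPM ± 36.6, SD, n = 2). Nid2, its paralog, gave 82.3 and 144 CPM. The nidogens therefore differed in opposite directions between the libraries: Nid1 was higher by 1.15-fold in library 1 (adjusted p = 1.82e-07, exact binomial test), and Nid2 by 1.75-fold in library 2 (adjusted p = 3.54e-30). The ratio of Nid1 to Nid2 was 4.78 in library 1 and 2.37 in library 2. Amplicon efficiency cancels in the change of this ratio, though not in its size.

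Among laminin alpha chains the reads were concentrated on 1 gene. Lama4, the chain of vascular, muscle and fat laminins, gave 174 CPM in library 1 and 247 CPM in library 2. It held 84.6% of laminin alpha reads in library 1 (exact 95% interval 82.4 to 86.7%) and 80.5% in library 2 (79.3 to 81.6%). Lama5, the widespread chain of epithelial and mature vascular basement membranes, followed at 19.2 and 40.1 CPM. Lama2, the chain of the sheath of muscle fibres and Schwann cells, gave 9.36 and 14.6 CPM. Lama5 was 2.08-fold higher in library 2 (adjusted p = 2.33e-13, exact binomial test). Lama2 was called in the same direction (adjusted p = 0.00958), a call lost when library 2 was thinned to the depth of library 1 (adjusted p = 0.0611). Lama4 was also called higher in library 2, by 1.42-fold (adjusted p = 1.03e-22, exact binomial test).

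The remaining alpha chains were close to the detection level. Lama1, the chain of embryonic basement membranes, gave 1.59 CPM from 9 reads in library 1 and 3.10 CPM from 49 reads in library 2. Lama3, the chain of the laminin under epidermis, gave 1.41 CPM from 8 reads and 2.21 CPM from 35 reads. Neither difference was called (adjusted p = 0.165 and 0.529, exact binomial test). For both genes the exact 95% intervals of the libraries overlapped.

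Lamb2 led the beta chains. It codes for a chain of the neuromuscular junction, the kidney filter and arterial walls, and gave 216 CPM in library 1 and 338 CPM in library 2. Lamb1, the widely expressed beta chain of development, gave 85.3 and 82.1 CPM and was not called (adjusted p = 0.763, exact binomial test). The ratio of Lamb2 to Lamb1 was 2.53 in library 1 and 4.12 in library 2, and Lamb2 alone of the pair was called, at 1.57-fold higher in library 2 (adjusted p = 4.72e-48, exact binomial test). Lamb3, the epidermal beta chain, gave 3.36 and 7.09 CPM.

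Lamc1, the gamma chain shared by most laminins, gave 149 CPM in library 1 and 124 CPM in library 2 and held 96.6% and 90.9% of the summed reads of Lamc1 and Lamc3. It was 1.21-fold higher in library 1 (adjusted p = 3.61e-05, exact binomial test). Lamc3, a minor gamma chain, went the other way. It gave 5.30 CPM in library 1 and 12.4 CPM in library 2 (adjusted p = 1.21e-05, exact binomial test).

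**Figure D2:**
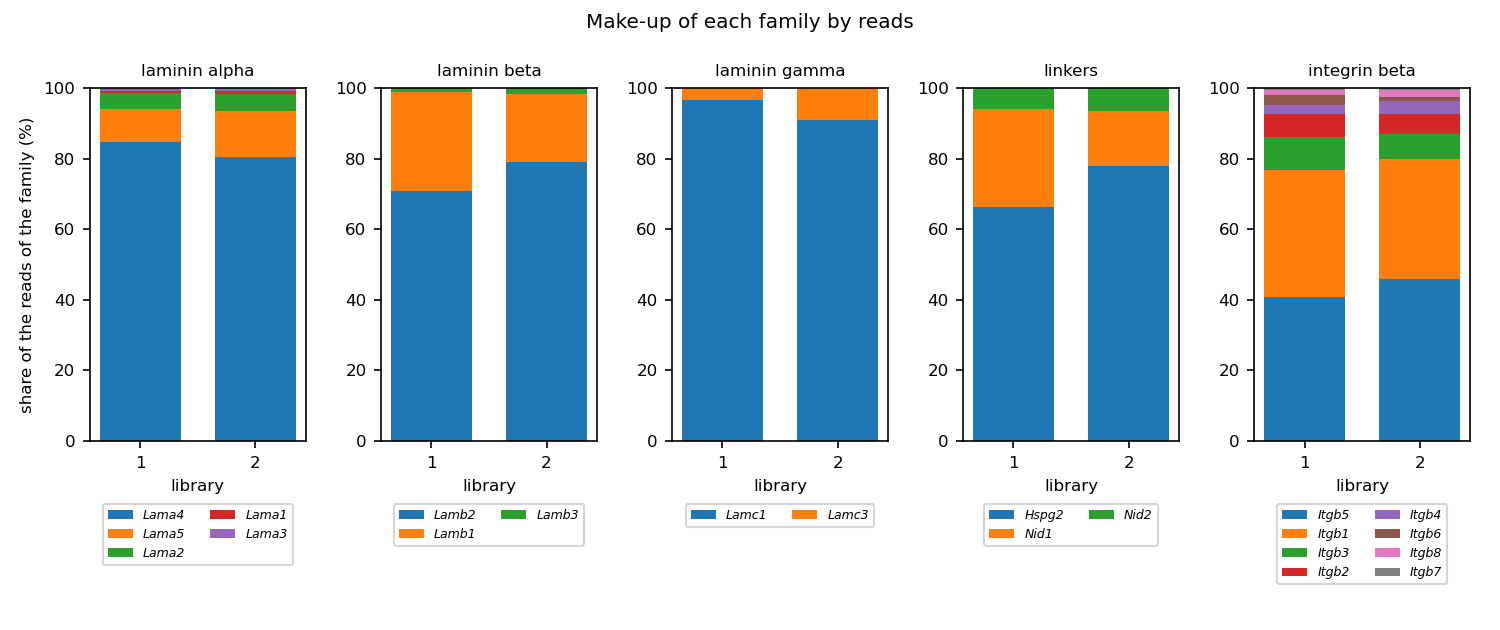
Share of each gene in the reads of its family, in percent, for the laminin alpha and beta chains, Lamc1 and Lamc3, the linkers and the integrin beta subunits, with 1 bar per library. In each of the laminin families and the linkers 1 gene holds most reads (Lama4, Lamb2, Lamc1 and Hspg2), whereas Itgb5 and Itgb1 share the beta subunits.

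Lama3 and Lamb3 code for chains of the laminin that anchors epidermis, and Itgb4 codes for the subunit of the hemidesmosome that binds it. All 3 had more CPM in library 2, and Lamb3 and Itgb4 were called. Itgb4 gave 14.5 CPM in library 1 and 28.0 CPM in library 2. Markers of basal epithelium also summed to more in library 2, 289 against 182 CPM, and 6 of 10 were called higher there. Cdh1, at 4.24 CPM in library 1 and 44.2 CPM in library 2, and Epcam, at 5.12 and 29.9 CPM, differed most in CPM. Dst, the highest marker, and Trp63 were not called. Krt14 was the marker called higher in library 1, at 22.2 against 5.57 CPM, and Dsg3 was nearly absent at 0.353 and 0.0630 CPM. The part of epithelium in these differences was not tested.

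Itgb5 and Itgb1 shared the beta subunit reads. Itgb5, which pairs with the alpha-v subunit to bind vitronectin, gave 232 CPM in library 1 and 362 CPM in library 2, or 40.8% and 46.0% of beta subunit reads. Itgb1, the common partner of most alpha subunits, gave 206 and 266 CPM, or 36.1% and 33.8%. Both were higher in library 2, Itgb5 by 1.56-fold (adjusted p = 5.00e-50) and Itgb1 by 1.29-fold (adjusted p = 2.41e-14), by exact binomial tests. Itgb5 lies on chromosome 16 from 33829665 to 33949338 and Itgb1 on chromosome 8 from 128685654 to 128733200.

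Itgb3 is a beta subunit of osteoclasts and platelets. It gave 52.6 CPM in library 1 and 56.0 CPM in library 2 and was not called (adjusted p = 0.626, exact binomial test). Itga2b, its platelet partner, gave 17.0 and 14.6 CPM and was not called either (adjusted p = 0.439). Platelet markers had sums of 155 and 81.4 CPM, with 3 of 8 called higher in library 1 and 1 in library 2, and osteoclast markers had sums of 3452 and 2404 CPM, with 2 of 10 called higher in library 1 and 3 in library 2. The part of these cells in the values of Itgb3, Itga2b and Itgav was not tested. In osteoclasts the partner of Itgb3 is Itgav, which gave 98.2 and 82.6 CPM and was 1.19-fold higher in library 1 (adjusted p = 0.00273, exact binomial test). That call was lost when library 2 was thinned to the depth of library 1 (adjusted p = 0.144).

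The other beta subunits were lower. Itgb6, an epithelial activator of TGF-beta, gave 15.5 CPM in library 1 and 10.2 CPM in library 2 (adjusted p = 0.00644, exact binomial test). Itgb8, which also activates TGF-beta together with alpha-v, gave 8.30 and 14.4 CPM (adjusted p = 0.00134). These beta subunits with a shared role therefore differed in opposite directions. Itgb6 also ran opposite to Itgb4, although both are known from epithelia.

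Fibronectin and collagen receptors led the alpha subunits. Itga5, whose product pairs with that of Itgb1 to form the main fibronectin receptor, gave 104 CPM in library 1 and 201 CPM in library 2 (mean 152 CPM ± 68.8, SD, n = 2). Fn1, the fibronectin gene, gave 746 and 1410 CPM. Receptor and ligand were both higher in library 2, Itga5 by 1.94-fold (adjusted p = 9.29e-55, exact binomial test) and Fn1 by 1.89-fold. Itga5 stood at 1.06 times the CPM of Itgav in library 1 and at 2.43 times in library 2. Itga8, a receptor of nephronectin, gave 32.7 and 40.8 CPM, and its ligand gene Npnt gave 119 and 261 CPM. The call of Itga8 toward library 2 (adjusted p = 0.0219, exact binomial test) was lost with median-of-ratios scaling (adjusted p = 0.0520) and in thinned reads (adjusted p = 0.123).

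Of the collagen-binding subunits, Itga11, a receptor of fibrillar collagen on mesenchymal cells, was the highest at 100.3 CPM in library 1 and 178 CPM in library 2. It was 1.78-fold higher in library 2 (adjusted p = 1.33e-38, exact binomial test). Itga1 gave 19.6 and 26.4 CPM, called higher in library 2 (adjusted p = 0.0150) but not in thinned reads (adjusted p = 0.200, exact binomial test). Itga2 gave 18.5 and 17.8 CPM and was not called. The ratio of Itga11 to Itga1 was 5.12 in library 1 and 6.75 in library 2. Itga1 and Itga2 are neighbours on chromosome 13, on the same strand and 21.0 kb apart. Their exact 95% intervals overlapped in library 1 and were separate in library 2, at 23.9 to 29.0 CPM for Itga1 and 15.8 to 20.1 CPM for Itga2. Library 2 held more reads, which narrows its intervals, and the amplicons of these genes may differ in efficiency. Osteoblast markers summed to 149991 and 161652 CPM, with 8 of 9 called higher in library 2. Suture mesenchyme markers summed to 856 and 898 CPM, with 6 of 9 called higher in library 2, 2 in library 1 and a median difference of -0.82 on the log2(CPM + 1) scale. The part of either cell type in the Itga11 difference was not tested.

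The laminin-binding alpha subunits split. Itga6, the partner of Itgb4 in hemidesmosomes and of Itgb1 in vessels, gave 61.1 CPM in library 1 and 94.9 CPM in library 2 (adjusted p = 1.67e-13, exact binomial test). Itga3, a receptor of epithelial laminins, gave 11.7 and 29.1 CPM, a 2.50-fold difference (adjusted p = 1.40e-13). Itga7, the laminin receptor of skeletal muscle, ran the other way at 38.8 and 25.9 CPM and was higher in library 1 (adjusted p = 1.23e-05, exact binomial test). Skeletal muscle markers differed more than Itga7, with a sum 3.25-fold higher in library 1 and 8 of 9 called in that direction. Lama2 and Lamb2, named above for muscle fibres and the neuromuscular junction, were instead higher in library 2, by 1.56-fold and 1.57-fold. The Lama2 call was lost in thinned reads. Lama2 was also named for Schwann cells. Schwann cell and glia markers ran the same way as Lama2, with a 2.56-fold larger sum in library 2. Of these 10 markers, 7 were called toward library 2 and 0 toward library 1. The part of muscle or Schwann cells in the Itga7, Lama2 and Lamb2 differences was not tested. The ratio of Itga6 to Itga7 was 1.57 in library 1 and 3.66 in library 2.

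**Figure D3:**
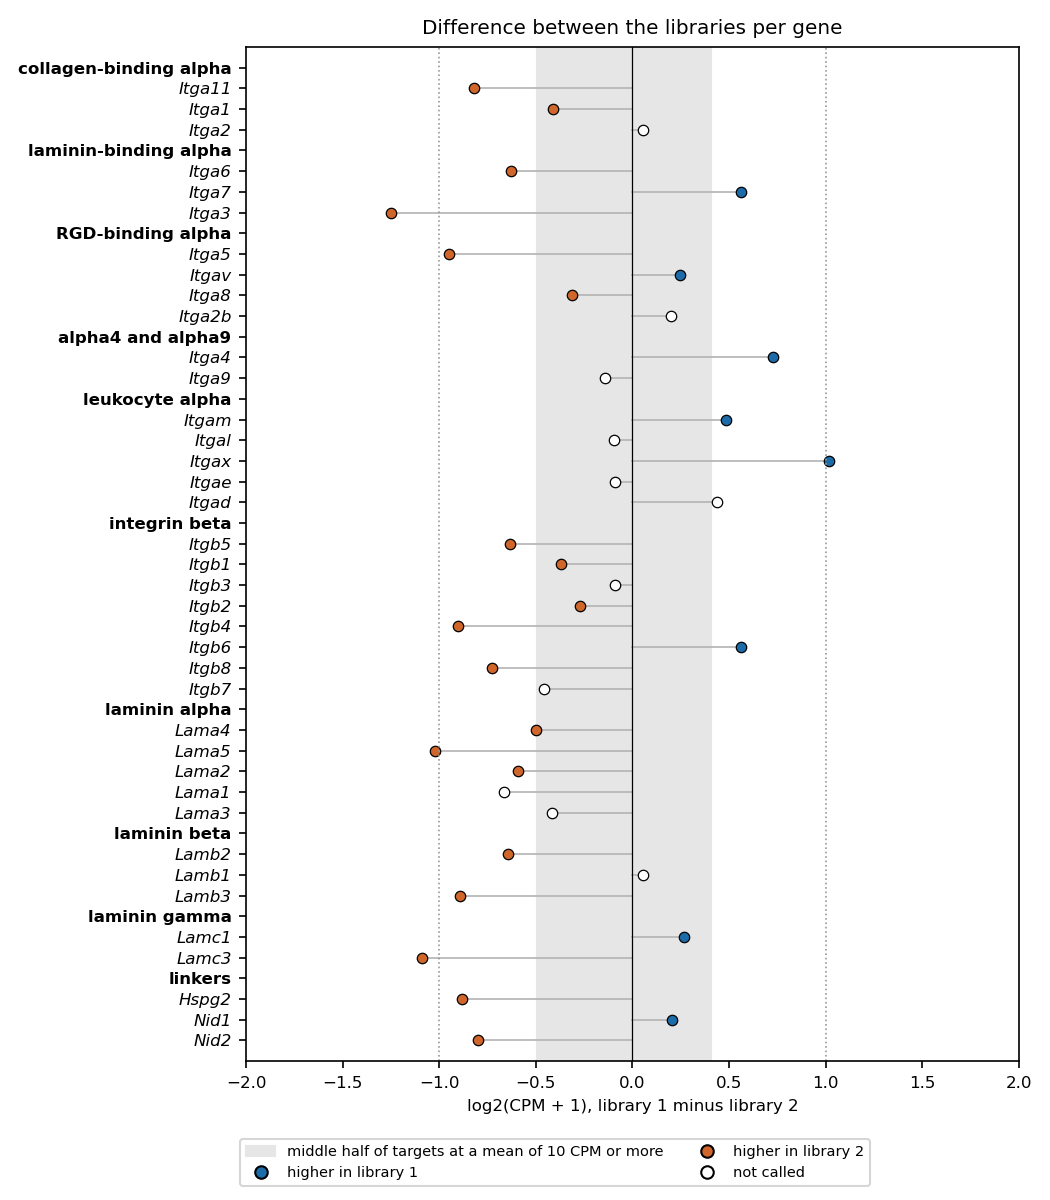
Difference of log2(CPM + 1) between the libraries for each member, library 1 minus library 2; fill gives the call of the exact binomial test, the grey band the middle 50% of targets averaging at least 10 CPM, and dotted lines a 2-fold difference on this scale. Most laminins and linkers lie left of 0, and Itga4, Itga7, Itgam, Itgax, Itgb6 and the uncalled Itgad lie right of the band.

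Of the 5 leukocyte alpha subunits, 2 were called higher in library 1, 0 in library 2 and 3 were not called, against 17.1% and 20.0% of all targets called in these directions. Itgam, the alpha subunit of the complement receptor of neutrophils and macrophages, gave 32.5 CPM in library 1 and 23.0 CPM in library 2 (adjusted p = 7.23e-04, exact binomial test). Itgax, the alpha subunit best known from dendritic cells, gave 5.12 and 2.02 CPM (adjusted p = 0.00151, and 0.0616 in thinned reads). Itga4, whose product binds Vcam1 and fibronectin on blood and progenitor cells, gave 22.6 and 13.2 CPM (adjusted p = 1.60e-05). Itga4 was likewise higher in library 1. Itga9, a relative of Itga4 known from muscle and lymphatic vessels, gave 15.4 and 17.1 CPM and was not called (adjusted p = 0.662).

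Itgb2, the shared leukocyte beta subunit and partner of Itgal, Itgam, Itgax and Itgad, gave 37.6 CPM in library 1 and 45.6 CPM in library 2. It was called higher in library 2 (adjusted p = 0.0363, exact binomial test), but the call was lost with TMM scaling (adjusted p = 0.0719), with median-of-ratios scaling (adjusted p = 0.0847) and when library 2 was thinned to the reads of library 1 (adjusted p = 0.202). Itgal, the lymphocyte partner, gave 7.95 and 8.54 CPM and was not called, and Itgb7, a lymphocyte beta subunit, gave 3.18 and 4.75 CPM and was not called. Leukocyte markers were themselves mixed, with 5 of 10 called higher in library 1, 4 in library 2 and sums of 1311 and 949 CPM. The neutrophil gene S100a8 stood at 215 and 69.4 CPM and the pan-leukocyte gene Ptprc at 4.06 and 6.96 CPM. The part of the white cell mixture in these differences was not tested.

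Itgae and Itgad were under the limit of 3 reads in library 1. Itgae, the subunit of tissue-resident T cells, had 1 read in library 1 and 4 in library 2. Itgad, a subunit of tissue macrophages, had 2 reads in library 1 and 0 in library 2, which allows up to 0.190 CPM. At this depth neither gene could be given a direction. Itgad lies 3.7 kb from Itgax on chromosome 7, and Itgax lies 11.1 kb from Itgam, all on the same strand, so neighbouring subunit genes spanned the range from 32.5 CPM to nearly no reads in library 1.

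Promoter sequences were available for 24 of the 38 members, in 27 windows, from RefSeq (GRCm38.p6, the build mm10). The 250 bases before the start site are shown for Hspg2, the highest member, with the GC box GGGCGG in capitals, and for the neighbours Itgam and Itgax, both higher in library 1, with the purine-rich GAGGAA in capitals on either strand (TTCCTC on the other). GC boxes are bound by Sp1-type factors, and GAGGAA is a core bound by PU.1, a factor of the myeloid lineage.
Hspg2, chr4:137468553-137468802, plus strand: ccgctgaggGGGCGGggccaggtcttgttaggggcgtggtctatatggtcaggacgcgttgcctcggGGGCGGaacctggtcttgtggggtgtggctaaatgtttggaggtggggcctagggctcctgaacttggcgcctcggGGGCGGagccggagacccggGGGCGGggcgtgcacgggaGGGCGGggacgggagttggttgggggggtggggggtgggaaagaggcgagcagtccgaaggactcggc
Itgam, chr7:128062390-128062639, plus strand: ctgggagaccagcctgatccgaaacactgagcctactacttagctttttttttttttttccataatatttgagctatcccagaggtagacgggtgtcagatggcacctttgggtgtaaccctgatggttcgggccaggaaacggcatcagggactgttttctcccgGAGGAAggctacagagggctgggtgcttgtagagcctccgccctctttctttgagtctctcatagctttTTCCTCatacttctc
Itgax, chr7:128129300-128129549, plus strand: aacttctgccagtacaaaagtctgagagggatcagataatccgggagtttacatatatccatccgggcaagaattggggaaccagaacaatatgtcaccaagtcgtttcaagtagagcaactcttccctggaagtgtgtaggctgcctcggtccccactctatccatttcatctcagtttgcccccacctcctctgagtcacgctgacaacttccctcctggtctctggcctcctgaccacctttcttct

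The Hspg2 window held 5 GC boxes and 20 CpG dinucleotides. The Itgam window held 2 GAGGAA matches, at positions -84 and -15 from the start site, and the Itgax window held 0. Over all 32851 windows of this length, 32.7% held a GC box and 23.3% held GAGGAA on either strand. Among the 27 member windows these shares were 40.7% and 51.9%, and the TATA box TATAAA was in 0 of them, against 12.4% of all windows. Windows were available for 7 members averaging at least 100 CPM and held 3 to 21 CpG (median 16). Only 3 of the 9 members averaging under 10 CPM had windows, and these 4 windows held 2 to 5 (median 4). Just above that level, Lama2 at a mean of 12.0 CPM held 0 and Itgb8 at 11.3 CPM held 12. Members without a window may differ. A match is a description of the letters and not a site in use.

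**Figure D4:**
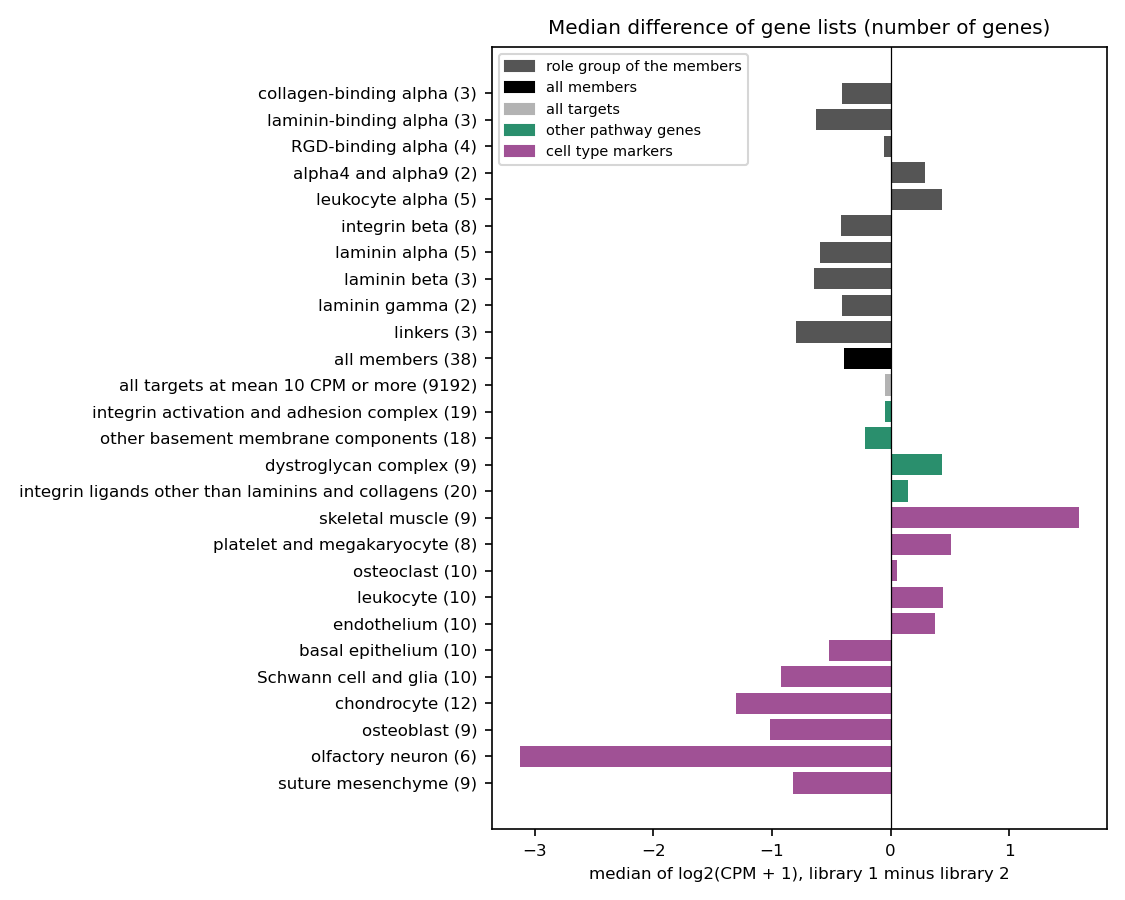
Median difference of log2(CPM + 1), library 1 minus library 2, for the role groups of the members, all members, all targets at a mean of 10 CPM or more, other genes of the pathway and cell type markers, with the number of genes in brackets. The laminins and linkers lie on the library 2 side, as do olfactory neuron, chondrocyte, osteoblast, Schwann cell, suture mesenchyme and basal epithelium markers. The median of the 5 leukocyte alpha subunits, 0.44, is the value of the uncalled Itgad, and 2 of the 5 were called, both higher in library 1.

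Of 18 other genes of basement membranes, 5 were called higher in library 1 and 6 in library 2, shares near the 32.5% and 37.0% of targets averaging at least 10 CPM. Col4a1 and Col4a2, the main chains of the collagen IV network that nidogens and perlecan bind, gave 787 and 372 CPM in library 1 and 498 and 342 CPM in library 2, and both were called higher in library 1, as were Nid1 and Lamc1. Agrn, a heparan sulfate proteoglycan of basement membranes like perlecan, gave 34.3 and 63.5 CPM and was called higher in library 2, as was Hspg2. The highest of the list was Sparc, a matrix protein that binds collagen IV and is abundant in bone, at 17146 and 11030 CPM. Markers of endothelium, which makes collagen IV, were called higher in library 1 in 6 of 10 cases and in library 2 in 0, with sums of 827 and 616 CPM. Lama4 and Lama5, named above for vessels, were instead called higher in library 2, by 1.42-fold and 2.08-fold. The part of vessels in these differences was not tested.

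Inside the cell, integrins recruit an adhesion complex. Of its 19 genes measured, 18 reached 1 CPM in both libraries, against 55.0% of all targets. Of the 19, 5 were called higher in library 1 and 7 in library 2, against 32.5% and 37.0% of targets averaging at least 10 CPM. Tln1, the gene of talin, which binds and activates beta subunits, gave 192 and 275 CPM, Parva 182 and 273 CPM and Tns3 165 and 242 CPM, all higher in library 2. Fermt2, the kindlin of mesenchymal cells, gave 96.6 and 60.5 CPM, and Fermt3, the kindlin of blood cells, 22.1 and 11.0 CPM, both higher in library 1. Fermt1, the kindlin of epithelia, was at 0.353 and 0.190 CPM.

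Dystroglycan, the other main laminin receptor, gave more CPM through its amplicon than any laminin-binding alpha subunit did. Dag1 gave 367 CPM in library 1 and 494 CPM in library 2 and was called higher in library 2. Sgcb gave 148 and 107 CPM and Utrn 120.2 and 66.1 CPM, both called higher in library 1. Of the 9 genes of that complex measured, 5 were called higher in library 1 and 2 in library 2, against 32.5% and 37.0% of targets averaging at least 10 CPM.

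Integrin ligands other than laminins and collagens ranged widely in level. Spp1, the bone ligand of alpha-v integrins known as osteopontin, gave 1655 and 3888 CPM, Tnc 1496 and 1260 CPM. Of 20 ligand genes, 16 reached 1 CPM in both libraries, against 55.0% of all targets, and the fibrinogen genes Fga, Fgb and Fgg did not. In all, 9 were called higher in library 1 and 8 in library 2. The shares were 17.1% and 20.0% of all targets, and 32.5% and 37.0% of targets averaging at least 10 CPM. Those called higher in library 1 include Fga, Fgb and Fgg, all averaging under 1 CPM. Their calls rest on 8, 4 and 5 reads in library 1 and 1, 0 and 0 in library 2. Vcam1, the ligand of the Itga4 product, gave 22.2 and 24.7 CPM and was not called, whereas Madcam1, the ligand of the Itga4 and Itgb7 pair, was nearly absent at 0.353 and 0.253 CPM.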

How the data were processed

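Libraries were built from total RNA with the Ion AmpliSeq mouse transcriptome panel, per the labels' protocols, and the submitters' processing notes name the build mm10. Aligner, counter and filters were not given in the sources used here. CPM values for 23930 targets were deposited, scaled within each library to its total. Values above 0 were whole multiples of 0.177 CPM in library 1 and 0.0633 CPM in library 2 (100% of values within 0.01 of a read), which gave the reads. Date-like entries replaced 27 symbols, none of a member, and were restored from target names.

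The libraries were compared per target by exact binomial tests, two-sided, of the recovered reads (scipy 1.17.1), adjusted by Benjamini and Hochberg over all 23930 targets at 0.05. This test covers counting error only. In simulated reads for these targets, drawn with counting error alone, it called 100% of 100 genes changed 2-fold, 82% of 100 changed 1.5-fold and 0.0295% of unchanged genes. That setting has no other spread between libraries, so these shares do not carry over to the libraries here. With no residual degrees of freedom no count model could be fitted. Folds are ratios of CPM, and log2 differences use a pseudocount of 1 CPM. Alternatives were scaling (edgeR 4.0.16 TMM, DESeq2 1.42.0 median of ratios), the pseudocount, the detection level, depth and leaving out a library. Positions are from GENCODE M21, and where each amplicon lies in its gene was not analysed here. 1 gene that the member rule takes is not reported here and enters no count of members. All members were eligible to be named, and of other lists mainly the highest genes by mean CPM. Those named beyond the highest 3 (Npnt, Agrn, Cdh1, Epcam, Trp63, Krt14, Dsg3, S100a8, Ptprc, Fermt1, Fermt2, Fermt3, Vcam1, Madcam1, Fga, Fgb and Fgg) were chosen after their values were seen, as were the pairs of genes whose ratios are given. The members and lists were chosen with earlier results of these data known.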

Additional observations from a re-analysis of the deposited data

How the results depend on the processing

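The number of members detected in both libraries was 36 at 1 CPM, 36 at 0.5 CPM and 34 at 2 CPM. The number at 10 CPM in both, 27, was 26 with library 2 thinned. With the level itself moved it was 31 at 5 CPM and 18 at 20 CPM. Without 1 library the numbers were 36 at 1 CPM and 27 to 30 at 10 CPM. The median difference of -0.39 ranged from -0.41 to -0.27. With a further limit of 1.5-fold, the members called higher in library 1 went from 8 to 3, and those called higher in library 2 from 19 to 14. The members at least 2-fold higher in library 1, 1 as reported, became 2 with a pseudocount of 0.1 CPM and 0 with 5 CPM, and those in library 2, 3 as reported, became 4 with 0.1 CPM, 1 with 5 CPM and 2 with either scaling, where Lama5 fell under 2-fold. A larger limit or pseudocount passes fewer genes by construction. No member that was called changed direction under any alternative run. Thinning library 2 to the depth of library 1, in 1 random draw, ended 6 calls (Itgb2, Itga1, Itgav, Itgax, Itga8 and Lama2). Which borderline calls end may depend on the draw. Median-of-ratios scaling ended the call of Itga8 (adjusted p = 0.0520, exact binomial test) beside that of Itgb2. No paired analysis was possible because the libraries form 1 group. Lama1, Lama3, Itgae and Itgad had under 10 reads in library 1, which leaves wide counting intervals.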

Other observations

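Genes with similar names that are not subunits were also read. Itgb1bp2, the gene of the striated muscle protein melusin, gave 235 CPM in library 1 and 84.1 CPM in library 2. It was 2.80-fold higher in library 1 (adjusted p = 6.80e-147, exact binomial test), next to the 3.25-fold higher sum of muscle markers there. The part of muscle in the Itgb1bp2 difference was not tested. Itgb1bp1, whose product binds the tail of the common beta subunit, gave 51.2 and 41.3 CPM. Itgbl1, a secreted protein that resembles a beta subunit, gave 15.2 and 19.4 CPM and was not called (adjusted p = 0.111). Itgb2l, a beta-like gene of neutrophils, gave 11.1 and 5.63 CPM and was 1.98-fold higher in library 1 (adjusted p = 2.73e-04, exact binomial test). Itgam, S100a8 and S100a9 were called in the same direction. Of 10 leukocyte markers, 5 were called higher in library 1 and 4 in library 2. Itgb2 was called higher in library 2, a call lost with either scaling and in thinned reads. The part of neutrophils in the Itgb2l difference was not tested.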
